A study of Mus musculus with 8 samples.

Results

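Growth-linked snoRNA host genes are non-coding genes whose introns carry small nucleolar RNAs and whose spliced transcripts follow translation and growth. The 7 genes described here, Gas5, Snhg1, Snhg3, Snhg5, Snhg6, Snhg8 and Snhg12, were chosen by name as rows of the deposited count table, which spells them GAS5, SNHG3, SNHG5, SNHG6, SNHG8 and SNHG12. Of the 7, 6 had a row among the 46625 rows of the table, and Snhg1 had none. Gas5, Snhg5, Snhg6, Snhg8 and Snhg12 passed the filter on low counts and were tested, each with counts in all 8 libraries, and Snhg3 did not pass it.

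The study sequenced RNA of 8F10 T cells, whose T cell receptor recognises an insulin peptide, from 2 kinds of recipient mouse. Donor marrow came from CD45.2 8F10 mice that also lack the endogenous T cell receptor alpha chain, and was depleted of T and B cells before transfer. The recipients were CD45.1 NOD or B16A mice, irradiated below a lethal dose, so that some of their own cells remained. The word host denotes a gene throughout, and the mice are called recipients. After 6 weeks the 8F10 T cells were sorted from inguinal lymph nodes, at a site outside the drainage of the pancreas. The strain given for every sample is NOD/ShiLtJ. NOD mice make native insulin, and B16A mice, as background, are NOD mice that make only an insulin with an alanine in place of a tyrosine in the B chain. The sources used here do not give the age or number of the recipients. Each kind of recipient had 4 libraries, 1 in each of 4 batches, as the labels call them. The labels do not say that the samples came from separate animals, so every p-value measures only how far these samples spread, and that spread may be technical.

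Small nucleolar RNAs, or snoRNAs, guide the chemical modification of ribosomal RNA, and most are cut out of introns of a host gene. In the host genes described here the introns carry the conserved product, while the spliced exons code for no known protein. Such hosts often start with a run of pyrimidines like the one at the start of ribosomal protein mRNAs, which couples their translation to growth signals, and their spliced RNA is removed by nonsense-mediated decay while ribosomes read it. Gas5, growth arrest-specific 5, took its name from its accumulation in growth-arrested cells and is a regulator of growth arrest in T cells.

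Start regions of the 4 most abundant hosts are shown because the pyrimidine run at the start is the feature that ties this class to growth control. Each line gives 50 bases before to 50 bases from the annotated start, 5′ to 3′ on the gene's strand, from RefSeq on GRCm38.p6. Capitals mark the longest run of C or T, of at least 5 bases, that begins with a C within 25 bases of that start. Gas5 has 2 annotated starts, and the second is shown, since the first, at position 161034601 of the chromosome, has no such run.
Gas5, chr1:161035116-161035215, plus strand: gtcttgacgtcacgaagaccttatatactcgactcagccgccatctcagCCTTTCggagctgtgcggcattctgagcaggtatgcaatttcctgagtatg
Snhg8, chr3:123508287-123508386, minus strand: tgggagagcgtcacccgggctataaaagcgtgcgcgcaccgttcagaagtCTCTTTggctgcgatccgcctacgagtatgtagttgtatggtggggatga
Snhg12, chr4:132308628-132308727, plus strand: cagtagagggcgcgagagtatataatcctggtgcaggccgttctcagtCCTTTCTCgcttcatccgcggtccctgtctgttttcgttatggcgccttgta
Snhg5, chr9:88522848-88522947, minus strand: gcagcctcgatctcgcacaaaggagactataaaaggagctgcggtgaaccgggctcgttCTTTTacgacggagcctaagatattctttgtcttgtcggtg

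The run was CCTTTC in Gas5, 6 bases long, and CTCTTT in Snhg8, also 6 bases long and beginning at the annotated start itself. Snhg12 had the longest, CCTTTCTC with 8 bases. That of Snhg5, CTTTT, is 5 bases long and begins 9 bases after the annotated start. RefSeq start regions were matched for 6 of the 7 genes, Snhg6 being the one without an entry. A C followed by 6 or more C or T, on the sense strand and starting within 25 bases of the annotated start, was found in 1 of the 6, Snhg12, against 27.9% of 27025 genes. This was the definition planned, and the runs shown for Gas5, Snhg8 and Snhg5 are too short for it. Other lengths and a narrower window were tried besides. With a run of at least 5 bases within 10 bases, 1 of those variants, 5 of the 6 matched and 34.4% of all genes did. Snhg1 was the gene that lacked it. Gas5 is counted there by its second start alone. The E-box CACGTG, a palindrome and so read on both strands at once, was in 0 of the 6 windows of 250 bases before to 50 after the start, against 8.09% of genes. The letters TATAA, searched for on the sense strand in the 50 bases before the start after the sequences had been seen, were in Snhg5, Snhg8 and Snhg12, 3 of the 6, against 5.89% of genes. These matches are descriptions of letters only.

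On GRCm38, in the GENCODE vM21 annotation, Gas5 lies on chr1:161034422-161038539 (plus strand) and Snhg6 on chr1:9941959-9944118 (minus strand). Snhg8 lies on chr3:123507552-123508404 and Snhg5 on chr9:88521050-88522929, both on the minus strand. Snhg12, at chr4:132308623-132311024 on the plus strand, and Snhg3, at chr4:132348014-132353686 on the minus strand, are near neighbours. Snhg1 lies on chr19:8723475-8726443 (plus strand). An exon of Snhg6 overlaps Mcmdc2 on the opposite strand, and Snhg3 shares exons with Rcc1, so that reads of these pairs may not have been told apart. Reads of hosts may likewise have been divided with near-identical copies elsewhere.

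The pair of batch 4 libraries differed from the rest before any result on the host genes. They held 28301805 (NOD) and 28094237 (B16A) counts against 4896593 to 6137666 in batches 1 to 3, yet detected 19751 and 20723 genes against 29729 to 33175. CPM values below are counts scaled to a common library size, adjusted by TMM, edgeR's trimmed-mean normalization. The summed level of 8 T cell markers was 4755 to 9309 CPM in batches 1 to 3 and 16456 and 12638 CPM in batch 4. The summed level of 4 B cell markers was 2.13 to 8.79 CPM and then 1.70 and 1.59 CPM. That of 6 myeloid and dendritic cell markers was 28.3 to 47.5 CPM and then 2.64 and 1.76 CPM, with Cd14 and Itgax at 0 in both batch 4 libraries. None of the 8 T cell markers was at 0 in all libraries of either batch group. Not every marker followed its sum. Cd4 was lower in batch 4 (log2 fold change -0.46, edgeR, adjusted p = 0.0252) and Trbc1 was not called (-0.07), while the other T cell markers rose. Cd79a averaged 1.33 CPM in batches 1 to 3 and 1.47 CPM in batch 4, while the other B cell markers had lower means in batch 4.

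The host genes were far higher in both batch 4 libraries than in any of the other 6. All 5 tested hosts rose, by 11.3-fold for Snhg12 to 24.7-fold for Snhg8, beside 31.4% of 14607 tested genes called higher. In each of the 5 hosts the lower batch 4 library stood at least 7.30-fold above the highest library of batches 1 to 3. How many of all genes had such a gap is not given here. The gap was seen in NOD and in B16A recipients alike, and together the hosts took 0.0122% to 0.0281% of all counts in batches 1 to 3 but 0.242% and 0.211% in batch 4. In such bulk samples fewer cells of a type and less RNA per cell cannot be told apart.

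Gas5, the most abundant of the hosts, stood at 137, 89.9, 187 and 1968 CPM in NOD recipients of batches 1 to 4, and at 123, 81.5, 102 and 1619 CPM in B16A recipients. The 6 libraries of batches 1 to 3 spread over little more than a doubling, and neither batch 4 library came near them. The difference of batch 4 from batches 1 to 3, with recipient as a covariate, was 3.91 on the log2 scale (standard error 0.21, edgeR quasi-likelihood test, adjusted p = 1.84e-09), or 15.0-fold with a 95% interval of 11.0 to 20.6.

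Snhg8, the host of the pseudouridylation guide Snora24, moved most. It stood at 17.6, 7.67, 29.6 and 412 CPM in NOD recipients and at 17.5, 7.65, 9.38 and 314 CPM in B16A recipients. Both batch 4 libraries were again clear of the rest, while batch 2 was the lowest batch in both kinds of recipient. The log2 fold change was 4.63 (standard error 0.35, edgeR, adjusted p = 2.77e-07), or 24.7-fold with an interval of 14.6 to 42.0.

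Snhg6, which carries Snord87 in an intron, was the least abundant of the tested hosts. Its levels were 3.10, 3.37, 3.60 and 60.9 CPM in NOD recipients and 4.11, 4.68, 0.647 and 66.5 CPM in B16A recipients. Batch 4 was the one batch in which these levels rest on more than 30 counts, and the B16A library of batch 3 had 4. Its log2 fold change was 4.29 (standard error 0.35, edgeR, adjusted p = 8.05e-08), or 19.5-fold with an interval of 11.7 to 32.6. Mcmdc2, whose exon lies opposite an exon of Snhg6, had between 4 and 20 counts per library outside batch 4 and 182 and 84 within it, and its part in the Snhg6 counts was not tested.

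Snhg5, the host of the methylation guides Snord50a and Snord50b, stood at 42.3, 19.6, 39.2 and 421 CPM in NOD recipients and at 30.4, 11.4, 18.1 and 327 CPM in B16A recipients. In each of the 4 batches the NOD library was the higher of the pair. Batch 4 exceeded batches 1 to 3 by 3.84 on the log2 scale (standard error 0.29, edgeR, adjusted p = 5.31e-08). Snhg12, which carries 4 snoRNAs, among them Snora44 and Snora61, stood at 22.0, 14.2, 22.1 and 202 CPM in NOD recipients and at 14.2, 9.67, 15.4 and 161 CPM in B16A recipients. It showed the same split between batch 4 and the rest, and a difference of 3.50 on the log2 scale (standard error 0.20, edgeR, adjusted p = 3.08e-09).

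**Figure D1:**
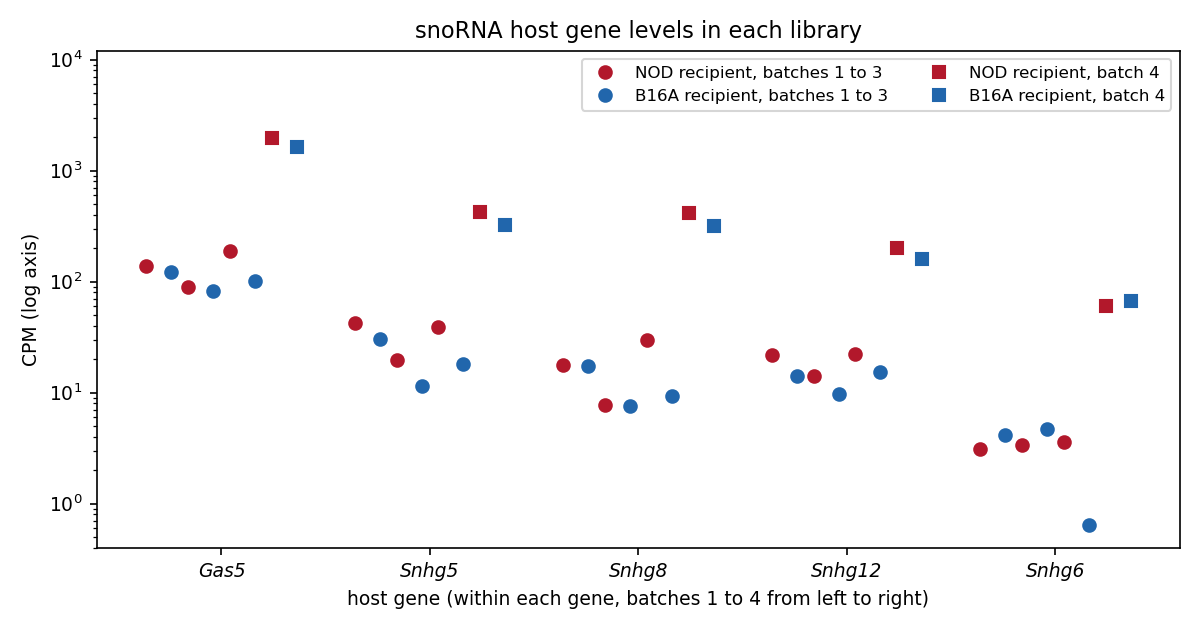
CPM (log axis) of the 5 tested snoRNA host genes in each of the 8 libraries, 1 point per library and no error bars, with NOD recipients in red, B16A recipients in blue, batches 1 to 4 from left to right within each gene, and batch 4 as squares. The 2 squares of every gene lie above all 6 circles, for Gas5 at 1968 and 1619 CPM against 81.5 to 187 CPM.

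A rise in batch 4 was common among all genes. The 5 of 5 tested hosts called higher stand beside a background of 31.4% of 14607 tested genes called higher and 40.0% called lower. The size of the hosts' rise was less common. Over all tested genes the median log2 fold change was -0.27 and the 95th percentile 2.82, and the lowest host, Snhg12 at 3.50, was exceeded by 308 genes (2.11%). Snhg8 was exceeded by 49 genes (0.335%), Snhg6 by 92 (0.630%), Gas5 by 162 (1.11%) and Snhg5 by 182 (1.25%). The median host log2 fold change was 3.91, which is 4.18 above the median of all genes. Under upper-quartile scaling 19.8% of genes were called higher and 52.9% lower. The median of all genes was then -0.94 and the hosts' median 3.24. The gap of 4.18 is the same because rescaling moves all genes nearly alike, so it is no check of the rise. With the batch 4 counts thinned to the median total of batches 1 to 3 the hosts had log2 fold changes of 3.31 to 4.43, 5 of 5 called beside 27.7% of genes called higher. DESeq2 and limma voom also called 5 of 5, beside 28.8% and 29.9% of genes. The 2 batch 4 libraries share their batch, so batch 4 cannot be told apart from anything else that differed with it. The depth, gene detection and marker sums given above moved with the same batch, and their part in the host gene levels was not tested.

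Related lists had lower medians than the 5 hosts. Their counts stand beside 31.4% of all tested genes called higher and 40.0% lower, or 19.8% and 52.9% under upper-quartile scaling. Of 13 other non-coding snoRNA hosts 9 were tested, of which 5 rose and 2 fell, with a median log2 fold change of 1.40. Snhg9 rose by 3.60 and Snhg16 by 2.92, while Snhg11 had -5.72 and Snhg20 -0.76, both called lower (edgeR, adjusted p under 0.05 for all 4). Among the 16 tested of 17 coding hosts, genes of the translation machinery with snoRNAs in their introns, 14 rose and 0 fell, with a median of 2.11, or 13 and 1 under upper-quartile scaling. Eif4a2, a helicase of translation initiation, had 3.94 and Rpl10, a large-subunit ribosomal protein, 3.59, both called. Rps3, a small-subunit protein, had 1.22 and was also called. Rpsa, another small-subunit protein, had 0.12 with a standard error of 0.31 and did not pass the test, and ribosomal protein genes in general have many pseudogene copies that can take reads from them.

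Proteins that assemble on the snoRNAs were also mostly higher in batch 4. All 8 core proteins were tested, of which 6 rose and 0 fell, with a median log2 fold change of 1.79. Nop10 at 3.62, Nhp2 at 2.71 and Dkc1 at 1.24, members of the box H/ACA particle that converts uridine to pseudouridine, were called, as was Nop56 of the box C/D methylation particle at 2.13. Gar1, the remaining H/ACA protein, had 0.11 with a standard error of 0.41 and was not called.

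Factors of nonsense-mediated decay, which degrade the spliced host RNAs, were divided. Of 10 tested, 5 rose and 3 fell, with a median of 0.63 that turned to -0.04 under upper-quartile scaling (3 higher and 4 lower). Upf1, the central helicase of the pathway, had 1.64 and Upf3b 2.24, both called higher, whereas Smg8 at -1.07 and Smg9 at -0.79 were called lower. Among 13 tested of 15 growth control genes 4 rose and 6 fell, with a median of -0.51, or 2 and 8 under upper-quartile scaling. This split was near that of all tested genes (31.4% higher and 40.0% lower, or 19.8% and 52.9% under upper-quartile scaling). Rheb, the GTPase that activates the mTOR complex, rose by 2.92 and Eif4ebp1, a repressor of translation initiation, by 1.39. The kinase Mtor itself (-1.82), Larp1 (-1.78), which binds the pyrimidine-run mRNAs, and Eif4ebp2 (-1.81) were called lower.

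**Figure D2:**
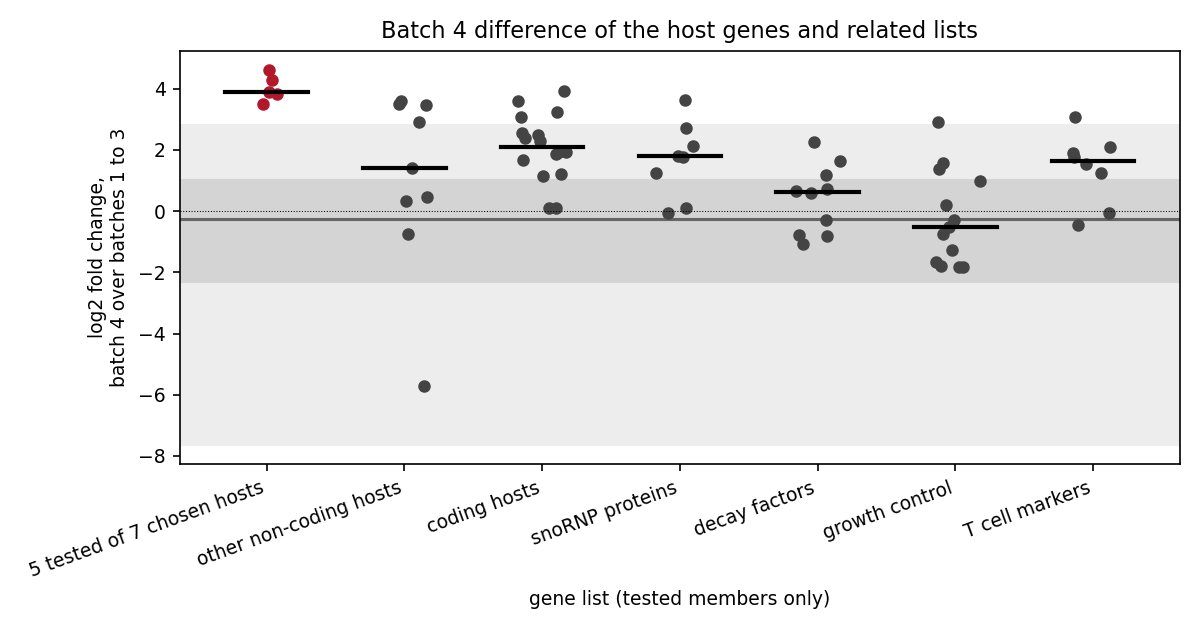
Log2 fold change of batch 4 over batches 1 to 3 for the tested snoRNA host genes (red), the related gene lists and T cell markers (grey), 1 point per gene with each list's median as a black bar; the light band spans the 5th to 95th percentile of all tested genes (-7.65 to 2.82), the dark band the 25th to 75th (-2.32 to 1.02) and the grey line their median (-0.27). All 5 red points lie above the light band.

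The mix of the hosts shifted far less than their level. Gas5 took 61.8% to 70.9% of the counts on the hosts in batches 1 to 3, and 64.2% (NOD, 95% Wilson interval 63.9 to 64.6) and 65.1% (B16A, 64.7 to 65.5) in batch 4, within the earlier range. Snhg8 took 5.69% to 10.5% in batches 1 to 3 and 13.5% (13.2 to 13.7) and 12.6% (12.4 to 12.9) in batch 4, above every earlier library. Snhg12 went the other way, from 7.48% to 10.6% in batches 1 to 3 to 6.59% and 6.47%. Snhg5 at 13.7% and 13.1% and Snhg6 at 1.99% and 2.68% stayed within their ranges of 9.92% to 19.0% and 0.446% to 4.08%. The intervals cover counting error only, since reads without molecular identifiers are not independent molecules.

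**Figure D3:**
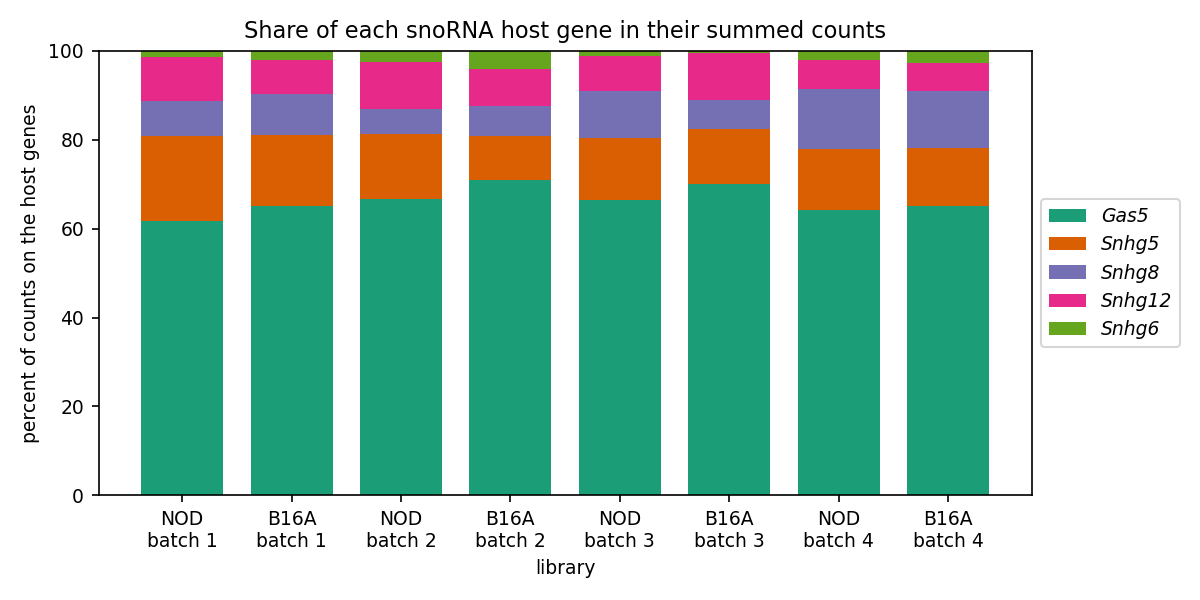
Percent of the counts on the tested snoRNA host genes that each gene took, as 1 stacked bar per library (NOD and B16A recipient side by side for batches 1 to 4). Gas5 makes up 61.8% to 70.9% of every bar, and the Snhg8 segment is largest in the 2 batch 4 bars, at 13.5% and 12.6%.

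Per kilobase of annotated exon, levels in batches 1 to 3 ran from Gas5 to Snhg6. Gas5 averaged 32.0 CPM per kilobase (range 21.7 to 49.9, n = 6), followed by Snhg8 at 17.5 (8.96 to 34.7) and Snhg5 at 15.5 (6.58 to 24.5). Snhg12 at 6.77 (4.03 to 9.18) and Snhg6 at 2.84 (0.565 to 4.08) came last. The ranges of each neighbouring pair in this order overlapped. In batch 4 Gas5 (523 and 431 CPM per kilobase) stood close to Snhg8 (483 and 368), and Snhg5 (243 and 189), Snhg12 (84.1 and 67.0) and Snhg6 (53.1 and 58.1) kept their places. Exon lengths are unions over all annotated transcripts, so a gene with many transcripts is divided by more than a single RNA's length.

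Snhg3 was barely detected. It had 0 counts in all 6 libraries of batches 1 to 3, which in a single library allows up to 0.457 to 0.561 CPM, and 8 (NOD) and 7 (B16A) counts in batch 4, or 0.359 and 0.293 CPM. Taken 1 library at a time, the batch 4 levels lie under that limit, so no fold is given. Without the filter on low counts Snhg3 was tested and called higher in batch 4 (edgeR, adjusted p = 0.0122), beside 15.8% of 39568 genes called higher in that fit.

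A snoRNA inside Snhg1, which has no row, and another in an intron of Snhg6 are shown as guides whose own rows held counts. Sequences are from GRCm38 at the GENCODE vM21 coordinates, 5′ to 3′ on the gene's strand, with the C box TGATGA and the D box CTGA, the paired motifs that mark a methylation guide, in capitals.
Gm23246 in Snhg1, chr19:8725594-8725660, plus strand: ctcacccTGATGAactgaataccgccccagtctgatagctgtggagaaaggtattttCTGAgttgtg
Snord87 in Snhg6, chr1:9942463-9942549, minus strand: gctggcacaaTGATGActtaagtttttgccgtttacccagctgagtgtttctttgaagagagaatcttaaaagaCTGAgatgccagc

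The annotation places 27 snoRNAs inside the 7 host genes, and all 27 had a row. Of these, 17 overlap an annotated exon of a host that has a row of its own. All 17 of the 17 had 0 counts in every library, in both kinds of recipient and in all batches, as did 596 of all 1467 snoRNA rows. The 8 inside Snhg1 all had counts. Their sum was 25, 21, 15 and 1552 counts in NOD recipients of batches 1 to 4 and 35, 14, 9 and 1336 in B16A recipients. In CPM this was 1.46 to 5.33 in batches 1 to 3 against 69.6 and 56.0 in batch 4, the lower batch 4 library standing 10.5-fold above the highest of the others. Gm23246 had 0 or 1 count in each library of batches 1 to 3 and 242 and 255 in batch 4. Snord22, the longest of the 8, had 1 to 3 counts and then 554 and 490. Snord87, which overlaps no exon of Snhg6, had 0 to 3 counts per library outside batch 4, where it had 111 and 168. Snora73b, which overlaps no exon of Snhg3, had 0 counts in all 8 libraries. Rows of Snhg1's snoRNAs therefore showed the same split of batches as the tested hosts, although no Snhg1 row was present, and whether their reads came from the snoRNAs or from the transcript of Snhg1 cannot be told apart in these counts.

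Between NOD and B16A recipients the snoRNA host genes were not called different. Over the 4 batches NOD recipients had the higher level of Gas5, Snhg5, Snhg8 and Snhg12 in 4 of 4 batches, but by amounts that varied from nearly 0 to 1.64 on the log2 scale, and Snhg6 was higher in 1 batch. The comparison asks whether T cells that developed with or without native insulin in the recipient differed.

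Within batches the log2 ratio of NOD over B16A for Gas5 was 0.16, 0.14, 0.88 and 0.28 in batches 1 to 4. The ratio of Snhg5 was 0.47, 0.78, 1.11 and 0.37, and that of Snhg12 was 0.63, 0.55, 0.52 and 0.33. Snhg12 was the steadiest of the hosts over the batches. Snhg8 was level in batches 1 and 2, with ratios of 0.0037 and 0.0038, and had 1.64 and 0.39 in batches 3 and 4. Snhg6 had -0.39, -0.45, 2.17 and -0.13, and its batch 3 ratio rests on 22 against 4 counts. Batch 3 held the highest ratio for Gas5, Snhg5, Snhg6 and Snhg8.

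**Figure D4:**
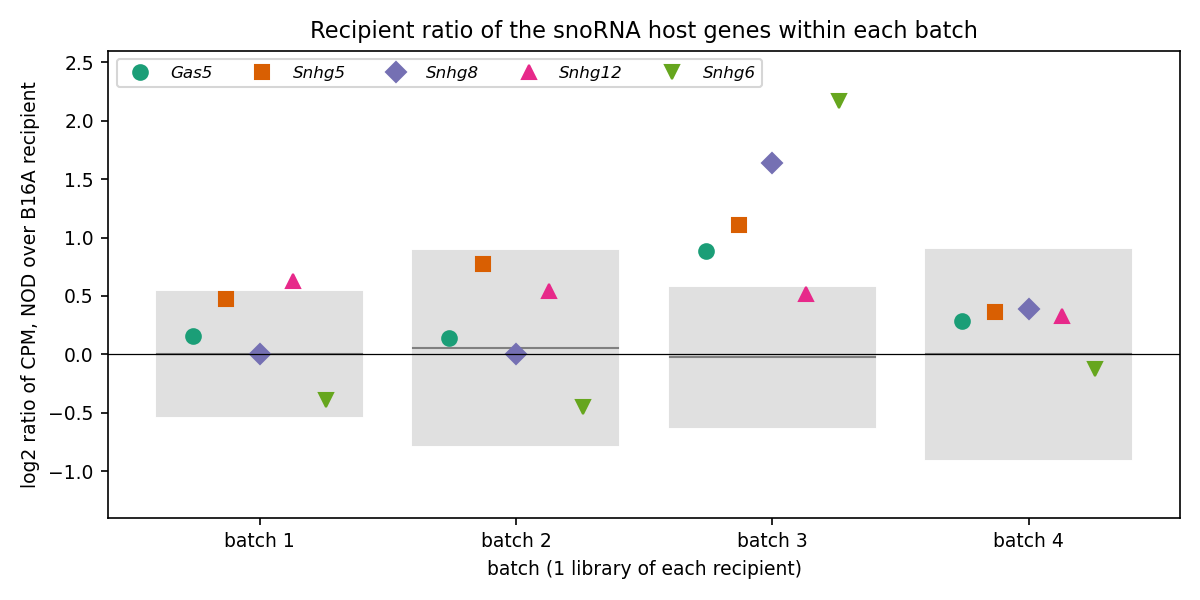
NOD over B16A log2 ratios of CPM for the 5 tested snoRNA host genes in each batch, 1 symbol per gene and 1 library of each recipient per batch; the grey line and band give the median of all tested genes and 1 SD over genes to either side. Batch 3 has the highest symbols, up to 2.17 for Snhg6. Gas5, Snhg5, Snhg8 and Snhg12 lie above 0 in every batch, Snhg8 by only 0.0037 and 0.0038 in batches 1 and 2.

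The hosts' median ratio was 0.16, 0.14, 1.11 and 0.33 in batches 1 to 4, beside medians of 0.00066, 0.05, -0.03 and 0 over all tested genes. Higher levels in NOD recipients in 4 of 4 batches were found for 4 of the 5 hosts, and for 1085 of all 14607 tested genes (7.43%). Snhg8 is among the 4 by ratios of only 0.0037 and 0.0038 in batches 1 and 2. Its raw counts there were lower in NOD recipients (102 against 115 and 41 against 49). The 4 hosts come from the same libraries and varied together, so they are not independent cases. The T cell marker sum moved with the hosts' ratios. It was 7072, 5329, 9309 and 16456 CPM in NOD recipients and 6402, 4755, 6535 and 12638 CPM in B16A recipients, log2 ratios of 0.14, 0.16, 0.51 and 0.38, and its part in the host gene ratios was not tested. Of the 8 markers 5, 4, 7 and 7 were higher in NOD recipients in batches 1 to 4, with median log2 ratios of 0.16, 0.02, 0.51 and 0.22. In batch 2 Trbc1, a large part of the sum, stood at 1620 CPM (NOD) against 846 CPM (B16A).

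In the comparison of 4 with 4 libraries without a batch term, 0 of the 5 hosts were called in edgeR or limma voom, as were 0 of all 14607 genes (0%). There were 34 genes at an unadjusted p under 0.05 in edgeR, 105 in DESeq2 and 1020 in limma voom. DESeq2 gave no p for any of the 5 hosts in this fit. Mean Gas5 levels were 596 ± 916 CPM with NOD recipients and 481 ± 759 CPM with B16A recipients (SD, n = 4 each), a spread set by batch 4. Log2 fold changes, NOD over B16A, were 0.31 for Gas5 with a standard error of 1.32, 0.43 for Snhg5 (1.32), 0.42 for Snhg8 (1.56), 0.38 for Snhg12 (1.18) and -0.10 for Snhg6 (1.47). All had an adjusted p of 0.9999 (edgeR). Leaving out the batch 4 library of NOD recipients turned the hosts' median from 0.38 to -1.86, and leaving out that of B16A recipients gave 2.59.

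With the batch number as a term the standard errors fell and the values were 0.37 for Gas5 (standard error 0.15), 0.66 for Snhg5 (0.16), 0.52 for Snhg8 (0.23), 0.50 for Snhg12 (0.16) and 0.089 for Snhg6 (0.35). Again 0 of 5 were called, beside 0% of all genes. The adjusted p of Snhg5 was 0.683 (edgeR), the smallest value in that fit. Lck shared it at a larger unadjusted p of 0.0043 (edgeR), so it does not rank Snhg5 first. The unadjusted p (edgeR) was 0.0010 for Snhg5, 0.0085 for Snhg12, 0.029 for Gas5, 0.040 for Snhg8 and 0.80 for Snhg6. Of all 14607 genes 857 had an unadjusted p under 0.05. The 95% interval of the Snhg5 log2 fold change was 0.32 to 1.01 and that of Gas5 0.044 to 0.69. DESeq2 with the batch term called 1 of the 5, Snhg5, at 0.67 on the log2 scale (standard error 0.18, adjusted p = 0.0439), beside 0.123% of all genes called higher. It gave Snhg6 no adjusted p. With both batch 4 libraries left out and the batch term kept, Snhg5 had 0.79 and an adjusted p of 0.103 in edgeR, where 0.159% of 15716 genes were called higher. With both batch 3 libraries left out the hosts' median was 0.20.

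The related lists showed no called gene between recipients, without or with the batch term in edgeR. Median log2 fold changes without the batch term were 0.24 for the other non-coding hosts, 0.33 for the coding hosts, 0.26 for the snoRNA-binding proteins, -0.01 for the decay factors and -0.07 for growth control, beside 0.03 for all genes. Among the coding hosts the named values were 0.42 for Rps3, 0.40 for Rpsa and 0.46 for Tpt1. Nop56, the scaffold of the methylation particle, had 0.68, with 401 CPM in the NOD and 198 CPM in the B16A library of batch 4. The coding hosts' median ratio by batch was 0.27, -0.0026, 0.49 and 0.12, so that batch 3 was also their highest.

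The difference between recipients in batch 4 was not shown to differ from that in batches 1 to 3. In the test of that difference 0 of the 5 genes were called, beside 5.87% of all genes. The estimates, recipient difference in batch 4 minus that in batches 1 to 3, were -0.12 for Gas5 (95% interval -0.74 to 0.51) and -0.42 for Snhg5 (-1.05 to 0.22). Those of Snhg6, Snhg8 and Snhg12 were -0.32, -0.20 and -0.24.

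Gas5, Snhg5, Snhg8 and Snhg12 varied together once the gap between batch 4 and the rest had been taken away. Over the 8 libraries the Pearson r of log2 CPM with the hosts' mean profile, which contains each of them, was 0.955 for Gas5, 0.948 for Snhg5, 0.959 for Snhg8 and 0.847 for Snhg12, but 0.316 for Snhg6. Among 10660 other genes the 5 most like this profile were Rps16-ps2 (0.984), Ube2k (0.980), Vdac3 (0.980), Gm14303 (0.978) and Rab27a (0.976). These values are descriptions over 8 libraries that share batches and composition. Their batch 4 log2 fold changes were 1.69 for Rps16-ps2, -0.02 for Ube2k, 2.98 for Vdac3, 4.17 for Gm14303 and 0.80 for Rab27a, so that Gm14303 alone lay within the range of the 5 hosts.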

How the data were processed

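The 8 samples of sorted mouse T cells gave cDNA amplified by the SeqPlex kit and single reads of 50 bases, per the labels' protocols. The authors deposited 1 table of raw counts, whole and not normalized, for every gene. The submitters' processing notes name STAR, HTSeq, DESeq2 and the build mm10. The sources used here do not give versions, the gene annotation, the use of strand or the handling of reads with several matches, so overlapping, antisense and near-identical genes are uncertain.

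The tests used edgeR 4.0.16 under R 4.3.3 (filterByExpr on recipient, TMM, robust glmQLFit, glmQLFTest). The filter left 14607 genes, over which Benjamini-Hochberg adjustment ran, with a threshold of 0.05. Recipients were compared over 8 libraries without a batch term, batch 4 against batches 1 to 3 with recipient as a covariate, and the change in that difference with batch as terms. Log2 CPM has a prior count of 2. DESeq2 1.42.0 and limma 3.58.1 (voom with quality weights), other scalings and filters, the batch term and left-out libraries were the alternatives. Standard errors were derived from the F statistic. The code was tested on simulated data.

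The labels give the same batch number to 1 library of each recipient, and the batch term rests on that number. Deviations from recipient means correlated across genes between the libraries of a batch at r = 0.625, 0.702, 0.611 and 0.906 in batches 1 to 4. Libraries of different batches among 1 to 3 had 0.465 to 0.741, highest between the batch 2 NOD and batch 3 B16A libraries. The recipient means include batch 4, so these values set batch 4 apart and cannot show pairing within batches 1 to 3. All pairs of libraries differed by more than sampling noise (smallest chi-square per degree of freedom 7.04).

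The host genes and related lists were chosen with earlier results of these data known. Of each list, up to 3 genes with the smallest p between recipients and up to 2 with the largest batch 4 change were eligible to be named. Genes were matched by symbol, 5 of them through an older symbol. Likeness was measured among genes with a mean of at least 4 CPM.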

Additional observations from a re-analysis of the deposited data

Results flagged for a closer look

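For each host gene with a row, the 4 libraries of each recipient and the 4 within-batch ratios were examined for a value far from the other 3, measured by its gap to the nearest divided by the range. Of 17 groups examined 13 had such a value. In 12 of them it was the batch 4 library, the highest of its recipient group. These were, NOD before B16A recipients, Gas5 at 1968 and 1619 CPM, Snhg5 at 421 and 327 CPM, Snhg8 at 412 and 314 CPM, Snhg12 at 202 and 161 CPM, Snhg6 at 60.9 and 66.5 CPM, and Snhg3 at 0.359 and 0.293 CPM. The Snhg3 values are 8 and 7 counts against 0 in the other libraries, a pattern that the rule flags at any level above 0. The remaining one was the log2 ratio of Snhg6, NOD over B16A, of 2.17 in batch 3, which rests on 22 against 4 counts. The 12 levels come from 2 libraries and are not independent of each other. The rule is set to flag about 1 in 20 groups of independent values by chance. That rate cannot be set against these groups, whose batch 4 gap was already known.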

How the results depend on the processing

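In batch 4, the 5 hosts were called higher under every scaling, filter and tool run and without any single library, with a median log2 fold change of 3.81 to 4.10 when 1 library was left out. With no filter on low counts Snhg3 was tested and called too, 6 in all. Upper-quartile factors gave a median of 3.24. Between recipients, 0 were called in every edgeR and limma voom fit, and DESeq2 without the batch term gave the hosts no p. The batch number as a replicate block gave 0 calls and a median of 0.50 in place of 0.38, and changed no other call in edgeR. The block with DESeq2 called 1 (Snhg5, 0.67).

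The recipient differences without the block depend on which batch 4 library is present. Leaving out 1 library gave -1.86 (without the NOD library of batch 4) to 2.59 (without the B16A library of batch 4) for the median and for Gas5, -1.58 to 2.76 for Snhg5, -2.58 to 2.55 for Snhg6, -2.32 to 3.39 for Snhg8 and -1.43 to 2.37 for Snhg12, with 0 to 0 called. Snhg6, at -0.10, turned positive in limma voom (0.83), with the block (0.089), with the block in DESeq2 (0.16), and with batch 4 left out without the block (0.090) or with it (0.33). The cause was not tested. Within 25 bases of the annotated start, a run of at least 5 bases was found in 5 of the 6 start regions, beside 59.3% of all genes. One of at least 9 bases was found in 0, beside 13.3% of all genes.

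Depth limits Snhg3 and Snhg6 most, since batches 1 to 3 hold 0 and 4 to 30 counts of them per library. With 2 libraries of 1 batch, the error of the batch 4 difference covers libraries and not batches.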

Other observations

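Over the whole table the annotation names 1467 rows as snoRNAs, of which 596 had 0 counts in every library and 20 passed the filter on low counts. Of these 20, 3 were higher and 10 lower in batch 4 (edgeR, adjusted p under 0.05), with a median log2 fold change of -2.07. Of all 14607 tested genes 31.4% were called higher and 40.0% lower, with a median of -0.27. The rows inside Snhg1, with 9 to 35 summed counts per library in batches 1 to 3, were not among those tested.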
